A study of Rattus norvegicus with 8 samples.

Results

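Smooth muscle and myofibroblast contractile genes were followed in single-cell RNA sequencing of fracture callus, the tissue that grows across the break in a healing bone, from rats of the Sprague Dawley strain. The members are Acta2, Actg2, Cnn1, Tagln, Myl9, Ppp1r14a, Csrp2, Pln, Tpm1 and Tpm2. All 10 were listed in each of the 8 libraries, out of 12282 genes listed in any library and 10849 listed in all 8. Per the labels, the groups were zoledronate with magnesium, zoledronate with CGRP (calcitonin gene-related peptide, a neuropeptide), zoledronate alone and no treatment (control), each harvested 12 weeks and 4 weeks after a closed fracture of 1 femur. They are called the magnesium, CGRP, zoledronate and control libraries. Zoledronate, a bisphosphonate that blocks bone resorption, was given under the skin for 12 weeks ahead of the fracture, in a weekly dose of 0.3 mg/kg. A steel and a magnesium-containing nail are named, but not which group had which nail, and no source used here gives the dose or route of CGRP, the age of the rats or the number of animals behind each library. Callus was digested with collagenase for 4 h, the cells were kept on a dish for 24 h, and 10000 cells went into each 10x Chromium V3 library. Cells that survived digestion and a day in a dish were therefore what was measured. Each combination of treatment and week is 1 library, so the values below compare libraries and carry no test, p-value or standard error.

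Contraction in smooth muscle cells and myofibroblasts rests on filaments of actin that slide along myosin. Myosin is switched on when its regulatory light chain is phosphorylated by a kinase, and switched off by a phosphatase. Tropomyosin, calponin and transgelin lie on the actin filament and tune its use by myosin. Myofibroblasts are fibroblasts that take on smooth muscle actin while they pull wounds together, and stiff culture plastic and the growth factor TGF beta are known to favour that state. Many genes of the set are known targets of the transcription factor SRF, which binds a short DNA element called the CArG box.

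The RefSeq promoter table (build GRCr8, another build than that of the counts) held windows for 8 of the 10 members, each from 250 bases before to 50 bases after the start of the gene. Tagln and Myl9 had no entry. A CArG box with all 6 middle bases A or T was in 0 of the 8 windows, against 1.637% of the 33469 windows in the table. After that result was seen, boxes with at least 5 of the 6 middle bases A or T were looked for. Such boxes were in the Acta2 window alone, which held 2 of them, and in 9.424% of all windows. The motif GGAATG of TEAD factors, searched on both strands, was in the windows of Acta2 and Tpm1 and in 14.19% of all windows. These matches describe letters in a short window and say nothing of binding. The bases before the start are shown, 5′ to 3′ on the strand of the gene, for the members with a match and for Actg2, the other smooth muscle actin, which had none. Capitals mark the relaxed CArG boxes, which begin 134 and 84 bases before the start of Acta2, and the TEAD motifs, which begin 196 bases before the start of Acta2 and 31 bases before that of Tpm1.
Acta2: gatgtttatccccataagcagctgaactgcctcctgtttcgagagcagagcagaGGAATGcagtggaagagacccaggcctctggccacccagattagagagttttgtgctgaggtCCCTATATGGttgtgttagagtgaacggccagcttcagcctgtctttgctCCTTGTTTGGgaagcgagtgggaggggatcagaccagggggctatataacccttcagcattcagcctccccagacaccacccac
Tpm1: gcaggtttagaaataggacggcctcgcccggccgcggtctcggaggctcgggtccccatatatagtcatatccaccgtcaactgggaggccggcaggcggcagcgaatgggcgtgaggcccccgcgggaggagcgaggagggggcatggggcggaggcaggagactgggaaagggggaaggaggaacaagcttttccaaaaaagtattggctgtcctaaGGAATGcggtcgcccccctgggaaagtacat
Actg2: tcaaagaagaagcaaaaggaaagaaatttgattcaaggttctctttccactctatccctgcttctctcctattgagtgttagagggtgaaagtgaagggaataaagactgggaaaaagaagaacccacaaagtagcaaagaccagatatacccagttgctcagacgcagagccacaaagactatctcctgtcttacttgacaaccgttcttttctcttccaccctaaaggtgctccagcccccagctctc

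The libraries held 141264724 to 160177900 UMIs (unique molecular identifiers, 1 per captured transcript), and 65208 of the 69624 barcodes had at least 5000 UMIs. Libraries shared 13 to 31 barcodes with each other, at most 0.386% of the smaller one. The smooth muscle label holds only in part. Myh11, the myosin heavy chain that defines smooth muscle, was at 8.11 to 67.0 CPM (UMIs of the gene per 1000000 UMIs), the actin nucleator Lmod1 at 82.4 to 151 CPM and smoothelin (Smtn) at 45.3 to 86.05 CPM. Desmin (Des), the intermediate filament of muscle, did not exceed 1.56 CPM, and Synpo2 did not exceed 0.654 CPM. The smooth muscle markers, which include the members Acta2, Tagln, Cnn1 and Actg2, summed to 10183 to 18441 CPM, most of it Tagln and Acta2. All 10 fibroblastic markers were listed in every library, with a summed level of 37507 to 59423 CPM. Most of that sum was Col1a1, Col1a2, Col3a1, Fn1 and Vim. Dcn was at 2.27 to 355 CPM and Lum at 6.12 to 219 CPM, both lowest in control at week 12. Pericyte markers summed to 44.3 to 148 CPM with Rgs5 and Higd1b unlisted. Among them Pdgfrb was at 8.65 to 37.9 CPM, Cspg4 at 7.35 to 15.3 CPM, Mcam at 4.35 to 11.5 CPM and Ndufa4l2 at 1.08 to 77.8 CPM. Macrophage markers summed to 11.4 to 24.8 CPM, with Cd14 at 10.2 to 15.2 CPM and Ptprc listed in 2 libraries. Skeletal muscle markers summed to 33.2 to 178 CPM, nearly all of it Acta1, with Myog, Myod1, Ckm and Ttn unlisted. Endothelial markers summed to 38.9 to 51.9 CPM, most of it Egfl7 (35.5 to 47.2 CPM), with Cdh5, Emcn and Cldn5 unlisted. Chondrocyte markers summed to 81.7 to 328 CPM, with Col2a1 at no more than 0.0788 CPM. Osteoblast markers summed to 274 to 1208 CPM, most of it Spp1 (249 to 1139 CPM). Alpl was at 4.38 to 34.5 CPM and Runx2 at 15.1 to 21.1 CPM. Bglap did not exceed 0.203 CPM, Ibsp did not exceed 7.96 CPM and Ifitm5 was unlisted. The cells are therefore described as callus cells with contractile genes, not as smooth muscle.

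The 10 genes together made up a few percent of all UMIs. At week 12 their share was 2.19% in the magnesium library, 1.57% in CGRP, 2.73% in zoledronate and 1.94% in control. At week 4 it was 2.00% in magnesium, 1.496% in CGRP, 2.06% in zoledronate and 1.60% in control. The CGRP library had the lowest share of its week at both weeks and the zoledronate library the highest. A sum over a library does not tell fewer cells of a kind from less RNA in each cell. Intervals below are exact Poisson 95% intervals, which cover counting error only and not the spread between animals, dishes or cells. They reached at most 2.84% from the value for any member except Pln, for which they reached 22.5%. Values are not compared between genes, since reads from transcript ends are not scaled to length.

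The muscle actins differed from each other in how they followed the libraries. Acta2, smooth muscle alpha-actin and the standard marker of myofibroblasts, was, at week 12, at 3558 CPM in magnesium, 2316 CPM in CGRP, 4198 CPM in zoledronate and 2799.8 in control. At week 4 it was at 2806 CPM in magnesium, 1608 CPM in CGRP, 3074 CPM in zoledronate and 2287 CPM in control. Zoledronate was thus highest and CGRP lowest at either week, and each treatment had more Acta2 at week 12 than at week 4. Actg2, the gamma actin of gut and bladder muscle, was, at week 12, at 89.1 CPM in magnesium, 33.0 CPM in CGRP, 127 CPM in zoledronate and 60.1 CPM in control. The week 4 levels of Actg2 were 186 CPM in magnesium, 106 CPM in CGRP, 136 CPM in zoledronate and 80.7 CPM in control. Every treatment had less Actg2 at week 12 than at week 4, the opposite order to Acta2. Actin genes are close copies of one another in their coding parts, and no source used here says how reads that fit several of them were counted, so the split between Acta2, Actg2 and Acta1 is uncertain.

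Calponin and transgelin, the proteins that bind along actin filaments, had the widest and one of the narrowest ranges among the well counted members. Cnn1 (calponin 1, which slows the pull of myosin on actin) was, at week 12, at 802 CPM in magnesium, 375 CPM in CGRP, 507 CPM in zoledronate and 384 in control. At week 4 it was at 165 CPM in magnesium, 61.1 CPM in CGRP, 188 CPM in zoledronate and 75.6 CPM in control. All 4 libraries of week 12 stood above all 4 of week 4, and the highest library had 13.1 times the level of the lowest. Tagln (transgelin, or SM22 alpha, an early gene of the smooth muscle lineage) was, at week 12, at 9418.5 CPM in magnesium, 7259 CPM in CGRP, 13428 CPM in zoledronate and 10116 CPM in control. The week 4 values of Tagln were 10003 CPM in magnesium, 8553 CPM in CGRP, 10024 CPM in zoledronate and 8267 CPM in control. Its highest library had 1.85 times the level of its lowest, and week 12 was above week 4 in zoledronate and control only.

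The tropomyosins, coiled rods that lie in the groove of the actin filament, held the steadiest member, Tpm1. Tpm1 was, at week 12, at 2214 CPM in magnesium, 1799 CPM in CGRP, 2669 CPM in zoledronate and 2135 CPM in control. Its week 4 levels were 2191 CPM in magnesium, 1753 CPM in CGRP, 2319 CPM in zoledronate and 1742 CPM in control, a range of 1.53 times over all libraries. Tpm2 was, at week 12, at 4562 CPM in magnesium, 2895 CPM in CGRP, 5331 CPM in zoledronate and 3260.3 in control. At week 4 Tpm2 was at 3647 CPM in magnesium, 2322 CPM in CGRP, 3776 CPM in zoledronate and 2849 CPM in control. Both tropomyosins had zoledronate as the highest library at each week.

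Of the genes that act on myosin, Myl9 kept the order of the actin Acta2, and Ppp1r14a did not. Myl9, the regulatory light chain whose phosphorylation turns smooth muscle myosin on, was, at week 12, at 491 CPM in magnesium, 351 CPM in CGRP, 508 CPM in zoledronate and 403 in control. At week 4 the light chain was at 387 CPM in magnesium, 236 CPM in CGRP, 401 CPM in zoledronate and 252 CPM in control. Ppp1r14a encodes CPI-17, an inhibitor of the phosphatase that removes that phosphate. Its week 12 levels were 353 CPM in magnesium, 186 CPM in CGRP, 95.2 CPM in zoledronate and 111 CPM in control. The week 4 levels of Ppp1r14a were 88.5 CPM in magnesium, 43.1 CPM in CGRP, 114 CPM in zoledronate and 85.1 CPM in control. Magnesium and CGRP at week 12 stood above the other 6 libraries, and CGRP at week 4 stood below them all.

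The last members had patterns of their own. Csrp2, a LIM-domain protein of smooth muscle and of activated stellate cells, was, at week 12, at 381 CPM in magnesium, 480.4 CPM in CGRP, 386 CPM in zoledronate and 170 in control. At week 4 Csrp2 was at 492 CPM in magnesium, 268 CPM in CGRP, 508 CPM in zoledronate and 287 CPM in control. Control was the lowest of its week at week 12 and CGRP at week 4. Pln (phospholamban, the small protein that holds back the calcium pump of the sarcoplasmic reticulum) was, at week 12, at 0.581 CPM in magnesium, 11.6 CPM in CGRP, 11.6 CPM in zoledronate and 9.47 CPM in control. Its week 4 values were 9.73 CPM in magnesium, 4.51 CPM in CGRP, 23.1 CPM in zoledronate and 29.3 CPM in control. The magnesium library of week 12 held 93 UMIs of Pln in all (interval 0.469 to 0.711 CPM).

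Within these orders some neighbours were not apart beyond counting error. For Acta2 these were magnesium at week 4 and control at week 12 (2797 to 2814 and 2791 to 2809 CPM). For Tagln they were magnesium and zoledronate at week 4 (9987 to 10019 and 10009 to 10040 CPM), and for Csrp2 magnesium and zoledronate at week 12 (378 to 384 and 383 to 389 CPM). Myl9 overlapped between zoledronate at week 4 and control at week 12 (398 to 404 and 400.04 to 407 CPM). Ppp1r14a overlapped between the same 2 libraries (112.7 to 116.0 and 109.7 to 113.1 CPM). Tpm1 overlapped between CGRP and control at week 4 (1746 to 1759 and 1735 to 1748 CPM). Pln overlapped between CGRP and zoledronate at week 12 (11.1 to 12.2 CPM for both) and between magnesium at week 4 and control at week 12 (9.24 to 10.2 and 8.97 to 9.99 CPM).

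**Figure D1:**
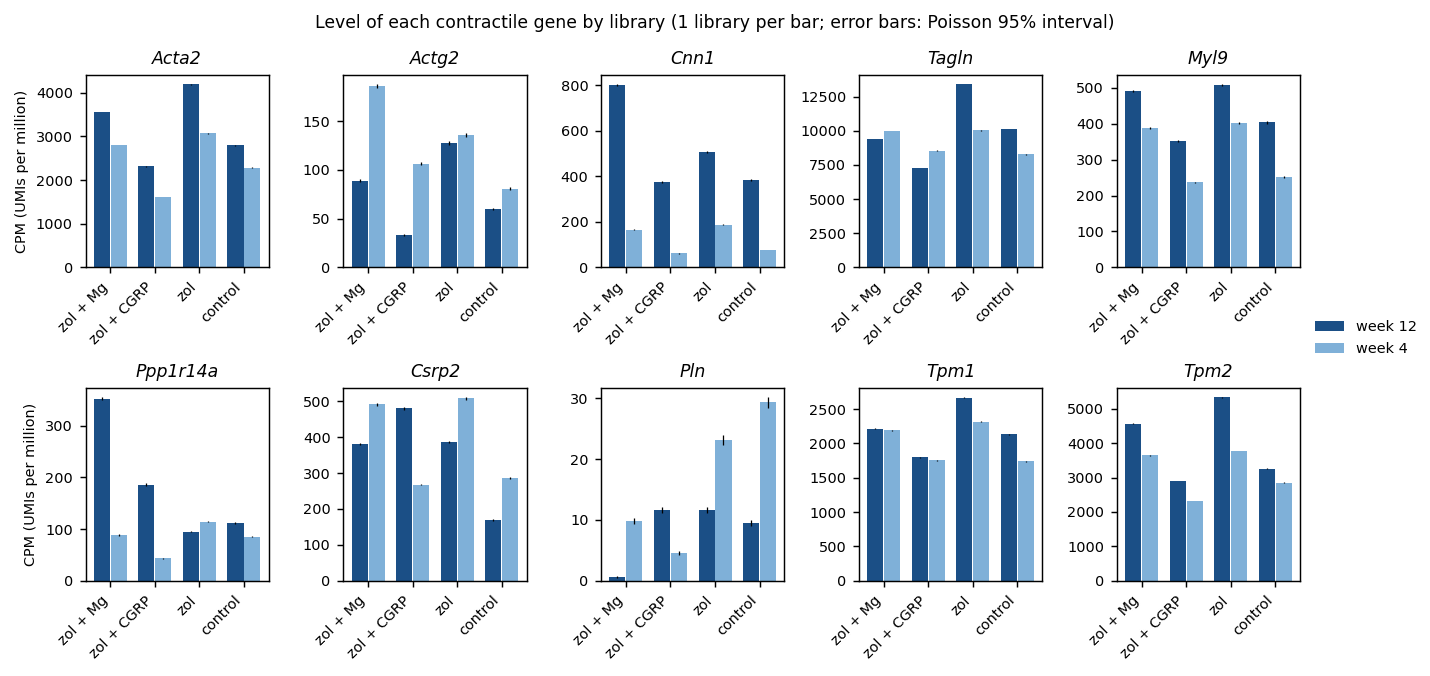
Level of each member in CPM (y axis, from 0, with its own scale per gene) in each library, by treatment (x axis; zol, zoledronate; Mg, magnesium) and week (dark, week 12; light, week 4); each bar is 1 library and error bars are exact Poisson 95% intervals. Cnn1 stands higher at week 12 in every treatment (802 against 165 CPM in magnesium), Actg2 lower, and Ppp1r14a reaches 353 CPM in magnesium and 186 CPM in CGRP at week 12.

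For zoledronate against control, most members were higher with zoledronate. At week 12 Csrp2 stood at 386 CPM in zoledronate against 170 CPM in control, Actg2 at 127 against 60.1 CPM and Tpm2 at 5331 against 3260.3 CPM, with log2 ratios (of CPM plus 1) of 1.18, 1.07 and 0.71. At week 4 Cnn1 led, at 188 against 75.6 CPM (1.30), before Csrp2 (0.82), Actg2 (0.74) and Myl9 (0.67). At either week 9 of the 10 were above 0, the exceptions being Ppp1r14a at week 12 (-0.23) and Pln at week 4 (-0.33).

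Counted by a fold of 1.5, 3 of the 10 members were higher in zoledronate at week 12, and 5.21% of the 7211 genes with a mean of at least 5 CPM were. At week 4 the count was 4 of 10 against a background of 1.26%. None was lower by that fold at either week, where 12.3% of genes were lower at week 12 and 1.21% at week 4. Acta2 was just short of the fold at week 12 (0.58). The median log2 ratio of the members was 0.40 at week 12, beside -0.12 over all genes, and 0.42 at week 4, beside -0.01. Proliferation differed in the same libraries: Mki67, the marker of dividing cells, was at 15.5 CPM in zoledronate against 97.1 CPM in control at week 12, and at 72.7 against 123 CPM at week 4. With barcodes that held Mki67 or Top2a left out, Actg2 was at 0.78 at week 12 and Cnn1 at 1.17 at week 4, and 1 member, Pln, was lower by the fold at week 4 (-0.61).

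For CGRP added to zoledronate, all 10 members were lower in the CGRP library at week 4 and 7 of 10 at week 12. At week 12 Actg2 was at 33.0 CPM in CGRP against 127 CPM in zoledronate, Tagln at 7259 against 13428 CPM, Tpm2 at 2895 against 5331 CPM and Acta2 at 2316 against 4198 CPM, with log2 ratios of -1.92, -0.89, -0.88 and -0.86. Ppp1r14a went the other way at that week, at 186 CPM in CGRP against 95.2 CPM in zoledronate (0.96), and so did Csrp2, at 480.4 against 386 CPM (0.32), while Pln was level (-0.00). At week 4 the lower members included Cnn1 at 61.1 against 188 CPM (-1.60), Ppp1r14a at 43.1 against 114 CPM (-1.39) and Pln at 4.51 against 23.1 CPM (-2.13).

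Past the fold of 1.5, 4 members were lower in CGRP at week 12 (background 5.13%) and 1 was higher (background 5.6%). At week 4 there were 7 lower (background 5.2%) and 0 higher (background 4.46%). Those 7 were Acta2 (-0.93), Cnn1, Myl9 (-0.76), Ppp1r14a, Csrp2 (-0.92), Pln and Tpm2 (-0.70), while Tpm1 (-0.40), Actg2 (-0.35) and Tagln (-0.23) lay within the fold. The median log2 ratio of the members was -0.55 at week 12 and -0.84 at week 4, beside medians of 0.00 and -0.00 over all genes. Here too the libraries differed in dividing cells, with Mki67 at 46.3 CPM in CGRP against 15.5 CPM in zoledronate at week 12 and 152 against 72.7 CPM at week 4. Over barcodes without Mki67 or Top2a the week 4 ratios were -1.38 for Cnn1, -1.09 for Ppp1r14a and -0.78 for Acta2. The zoledronate library is the divisor here and in the next comparison and the numerator in the one before, so the 3 comparisons are not independent.

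For magnesium added to zoledronate, the members were close at week 4 and parted at week 12. At week 12 Ppp1r14a was at 353 CPM in magnesium against 95.2 CPM in zoledronate (log2 ratio 1.88) and Cnn1 at 802 against 507 CPM (0.66). Pln was at 0.581 against 11.6 CPM (-3.00), a gene of so few UMIs that its ratio depends on the 1 CPM added (-4.11 with 0.1 CPM). The other 7 lay within the fold, and all of them were lower in magnesium, from Tagln and Actg2 (both -0.51) to Csrp2 (-0.02). At week 4 Pln was the one member past the fold, at 9.73 CPM in magnesium against 23.1 CPM in zoledronate (-1.17), and Actg2 was at 186 against 136 CPM (0.45).

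By count, 2 members were higher at week 12 (background 7.58%) and 1 lower (background 4.51%). At week 4, 0 were higher (background 0.625%) and 1 lower (background 0.472%). The median of the members was -0.23 at week 12, where all genes had 0.07, and -0.07 at week 4, where all genes had -0.00. Mki67 was at 43.3 CPM in magnesium against 15.5 CPM in zoledronate at week 12 and at 81.7 against 72.7 CPM at week 4.

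For week 12 over week 4 within a treatment, Cnn1 was the member with the most in common. Its log2 ratio was 2.27 in magnesium, 2.60 in CGRP, 1.43 in zoledronate and 2.33 in control. Ppp1r14a was higher at week 12 in magnesium (1.98) and CGRP (2.08), and had ratios of -0.26 in zoledronate and 0.38 in control. Actg2 was lower at week 12 in magnesium (-1.06) and CGRP (-1.66), and stood at -0.09 in zoledronate and -0.42 in control. Pln was lower at week 12 in magnesium (-2.76, or -3.85 with 0.1 CPM added in place of 1), zoledronate (-0.93) and control (-1.53), and higher in CGRP (1.20). Csrp2 was also higher in CGRP (0.84), against -0.37 in magnesium, -0.40 in zoledronate and -0.76 in control.

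Past the fold of 1.5, week 12 was higher than week 4 for 2 members in magnesium (Cnn1 and Ppp1r14a; background 6.09%), 4 in CGRP (Cnn1, Ppp1r14a, Csrp2 and Pln; background 6.75%), 1 in zoledronate (Cnn1; background 3.31%) and 2 in control (Cnn1 and Myl9; background 8.06%). It was lower for 2 in magnesium (Actg2 and Pln; background 4.64%), 1 in CGRP (Actg2; background 7.46%), 1 in zoledronate (Pln; background 5.61%) and 2 in control (Csrp2 and Pln; background 4.4%). Acta2, Tpm1, Tpm2 and Tagln stayed within the fold in every treatment. Acta2 was at 0.34 in magnesium, 0.53 in CGRP, 0.45 in zoledronate and 0.29 in control. Tpm2 lay between 0.19 and 0.50 and Tpm1 between 0.01 and 0.29. Tagln was at -0.09 in magnesium, -0.24 in CGRP, 0.42 in zoledronate and 0.29 in control. The members had medians of 0.17 in magnesium, 0.55 in CGRP, 0.27 in zoledronate and 0.29 in control, beside 0.00, -0.05, -0.05 and 0.06 over all genes. Mki67 was lower at week 12 in all 4 treatments, and over barcodes without Mki67 or Top2a the ratio of Cnn1 was 2.41 in magnesium and 2.45 in CGRP, while that of Ppp1r14a was 1.72 in CGRP.

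**Figure D2:**
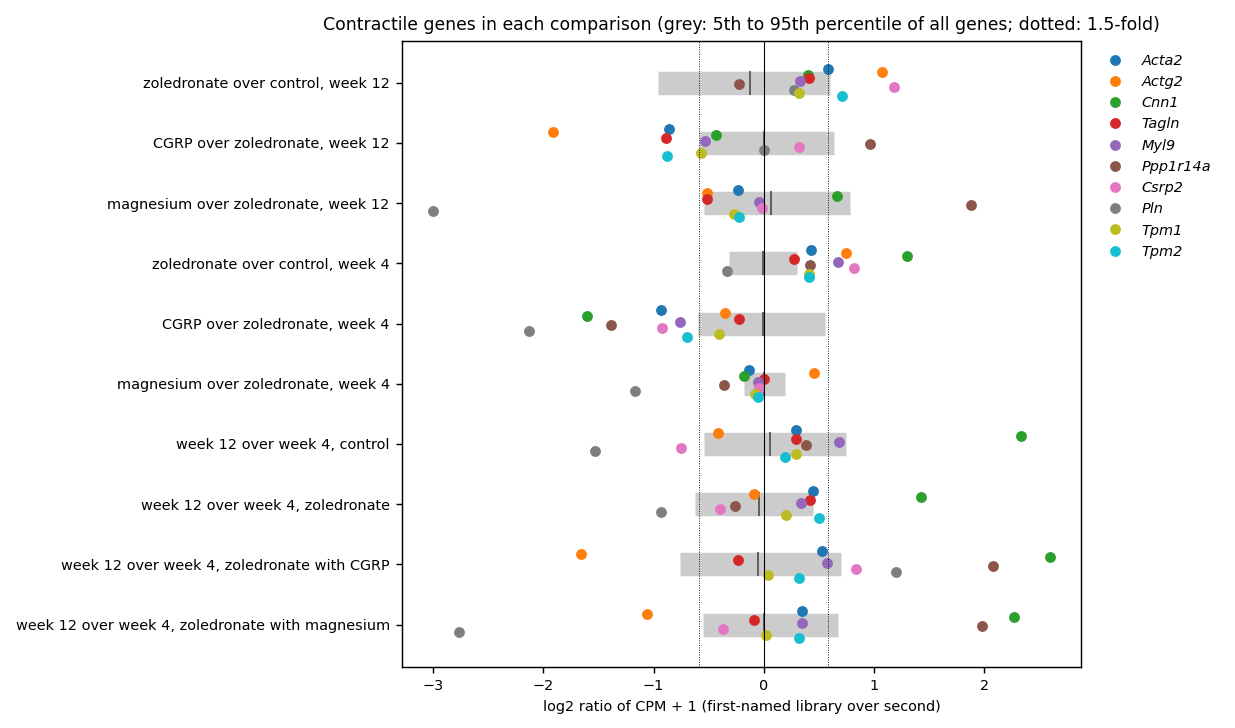
Log2 ratio of CPM plus 1 (x axis, first-named library over second) of each member (coloured points) in the 6 treatment and 4 week comparisons (rows); grey bars run from the 5th to the 95th percentile of all genes with a mean of at least 5 CPM, ticks mark their median and dotted lines a fold of 1.5. The points of CGRP over zoledronate at week 4 all lie below 0, and Cnn1 is the point furthest right in each week comparison (1.43 to 2.60).

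Over single cells the members fell into those seen in nearly every cell and those seen in some. To compare cells at 1 depth, each of the 65208 barcodes with at least 5000 UMIs was thinned at random to 5000 UMIs, and the 4416 shallower barcodes (197 to 960 per library) were left out. Tagln was then detected in 99.7 to 99.9% of the cells of a library, Tpm2 in 97.9 to 99.97%, Tpm1 in 97.8 to 99.3% and Acta2 in 90.7 to 98.0%. Myl9 was detected in 54.5 to 82.2% and Csrp2 in 46.8 to 80.1%. Members with the fewest cells were Actg2 (6.41 to 22.0%) and Pln (0.313 to 7.40%). No cell type annotated as lacking these genes was at hand to measure the share that free RNA gives. Beside them, Csf1r, a macrophage gene, was detected in at most 0.263% of cells and Des in at most 0.688%. In magnesium at week 12 the Pln share of 0.313% lay between those of Csf1r (0.263%) and Des (0.688%) in that library.

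Cnn1 and Ppp1r14a differed in how many cells held them as well as in level. Cnn1 was detected at week 12 in 85.1% of cells in magnesium (Clopper-Pearson 95% interval 84.3 to 85.8), 64.3% in CGRP (63.4 to 65.3), 71.5% in zoledronate (70.6 to 72.4) and 62.6% in control (61.5 to 63.7). At week 4 the Cnn1 share was 37.4% in magnesium (36.3 to 38.5), 16.7% in CGRP (15.9 to 17.5), 41.4% in zoledronate (40.3 to 42.5) and 20.3% in control (19.3 to 21.3). Ppp1r14a was detected in 69.9% of cells in magnesium and 47.2% in CGRP at week 12, against 32.8% in zoledronate and 31.4% in control. Its week 4 share was 29.8% in magnesium, 14.3% in CGRP, 35.6% in zoledronate and 29.6% in control. Unthinned, the Cnn1 share ran from 30.3% (CGRP, week 4) to 94.8% (magnesium, week 12), the same ends of the order. Cells with at least 8 of the 10 members made up 42.3% of magnesium, 24.4% of CGRP, 25.9% of zoledronate and 14.5% of control at week 12. At week 4 they made up 18.8% of magnesium, 5.40% of CGRP, 21.0% of zoledronate and 10.0% of control.

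The members also differed in how unevenly their UMIs were spread. The 10% of cells richest in Tagln held 19.8 to 22.0% of its thinned UMIs, and those richest in Tpm1 held 23.4 to 25.5%. For Acta2 the share was 25.3 to 33.0% and for Cnn1 29.8 to 79.1%, the top being CGRP at week 4. For Ppp1r14a it was 34.2 to 79.7%, for Actg2 83.5 to 100% and for Myh11, which is not a member, 80.9 to 100%. The measure climbs as fewer cells hold a gene and is 100% by construction for a gene detected in fewer than 10% of cells, as Pln was in all libraries. Cells with at least 10 thinned UMIs of Actg2 numbered 80 in magnesium, 28 in CGRP, 168 in zoledronate and 67 in control at week 12. At week 4 they numbered 179 in magnesium, 114 in CGRP, 125 in zoledronate and 57 in control, and over all libraries they were 0.270 to 2.46% of cells. In these cells the mean of Acta2 was 1.83 to 2.76 times that in the other cells of the library, and the mean of Cnn1 was 1.93 to 6.68 times. Ppp1r14a was at 1.70 to 3.75 times and Csrp2 at 0.913 to 1.82 times. At week 12 in CGRP, for example, Cnn1 was at 1114 CPM in the 28 cells high in Actg2 against 370.1 CPM in the others. Doublets were not removed, and their part in these few cells was not tested.

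**Figure D3:**
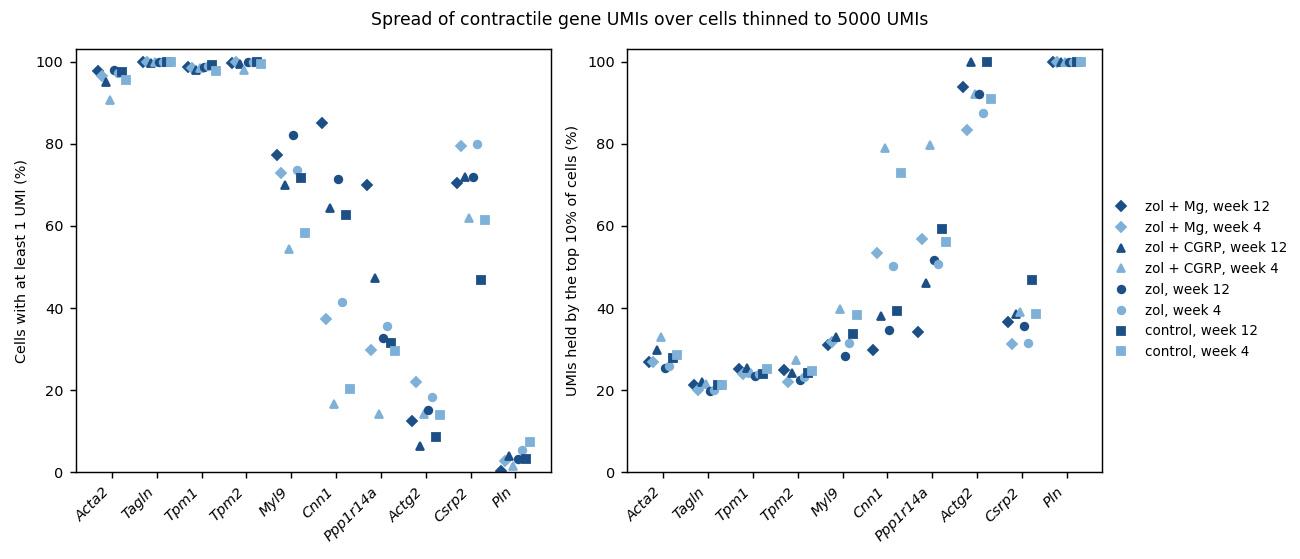
Cells of each library thinned to 5000 UMIs: left, share of cells with at least 1 UMI of each member (y axis, %); right, share of the UMIs of a member held by the 10% of cells with the most of it (y axis, %). Each symbol is 1 library (shape, treatment; dark, week 12; light, week 4). Tagln, Tpm1 and Tpm2 lie near 100% on the left and low on the right, Actg2 the reverse, and Cnn1 spans 16.7 to 85.1%.

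Cell by cell, 6 members moved together. Over barcodes with at least 5000 UMIs, scaled to 10000 UMIs and log-transformed, the median over the 8 libraries of the within-library Pearson r was 0.85 for Acta2 and Tagln (0.80 to 0.87), 0.75 for Acta2 and Tpm1 and 0.74 for Tagln and Tpm1. Acta2 had an r of 0.69 with Myl9, 0.67 with Tpm2 and 0.57 with Cnn1. These 6, the actin, its binding proteins, both tropomyosins and the light chain, formed a block whose lowest pair was Cnn1 with Tpm2 (0.49). Ppp1r14a was less tied to them, at 0.33 with Acta2, and Actg2 less again, at 0.21. Csrp2 and Pln were near 0 with the other members, at 0.06 and 0.11 with Acta2 and -0.05 with each other. In counts as sparse as those of Pln such a value is no finding. Csrp2 was detected in about as many cells as Myl9, whose r with Acta2 was 0.69. Of the 45 pairs, 24 had a median of at least 0.2 and 2 were below 0. Cells of a library share its depth and its totals, and each r is a description over 6809 to 10370 cells with no p.

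Thinning every cell to the same depth lowered these values and left Acta2 and Tagln as the first pair. With cells thinned to 5000 UMIs, Acta2 and Tagln had a median r of 0.79 (0.73 to 0.83), Acta2 and Tpm1 0.65, Acta2 and Cnn1 0.46 and Acta2 and Ppp1r14a 0.24, and 19 pairs reached 0.2. The tie between Cnn1 and Acta2 differed among libraries more than that of the leading pair, at 0.44 to 0.73 before thinning. Against the mean of the other 9 members, thinned cells gave a median r of 0.76 for Tagln and for Acta2, 0.68 for Tpm1, 0.61 for Tpm2, 0.55 for Myl9 and 0.52 for Cnn1. The same measure was 0.27 for Ppp1r14a, 0.22 for Actg2 and 0.07 for Csrp2 and for Pln. For Cnn1 it was 0.67 in magnesium, 0.58 in CGRP, 0.59 in zoledronate and 0.55 in control at week 12, and 0.47 in magnesium, 0.41 in CGRP, 0.49 in zoledronate and 0.43 in control at week 4. The lower week 4 values came with fewer Cnn1 UMIs per cell.

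**Figure D4:**
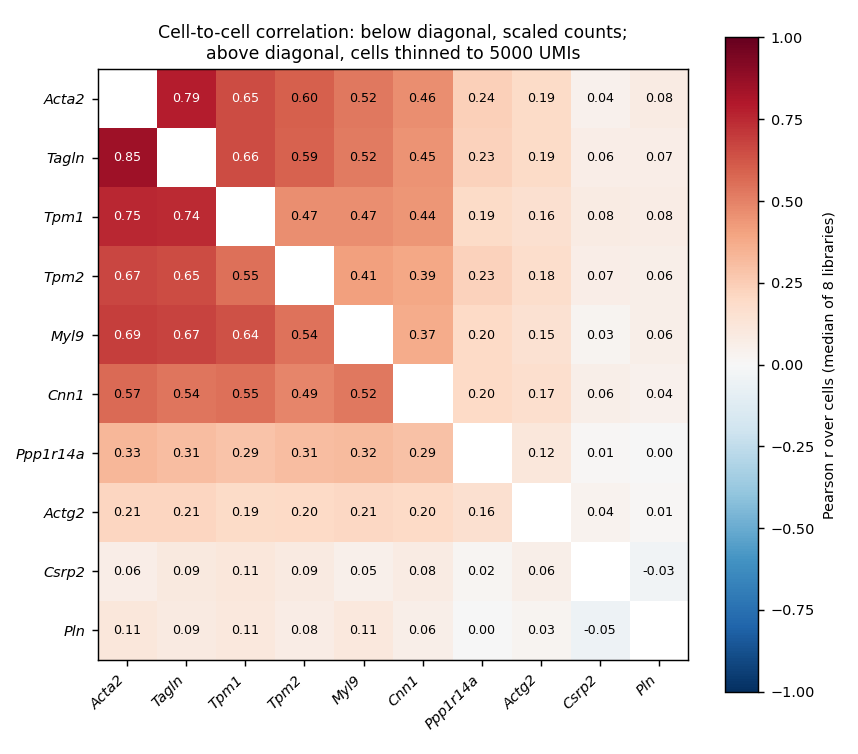
Pearson r over cells for each pair of members, as the median of 8 libraries (colour and number), below the diagonal for scaled counts and above it for cells thinned to 5000 UMIs. Acta2, Tagln, Tpm1, Tpm2, Myl9 and Cnn1 form a block of 0.49 to 0.85 below the diagonal, while Csrp2 and Pln stay between -0.05 and 0.11.

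Cells that were dividing had less of most members. Split by a UMI of Mki67 after thinning, Acta2, Actg2, Tagln, Myl9, Ppp1r14a and Tpm2 were lower in the Mki67 cells of all 8 libraries, Tpm1 in 7, Cnn1 in 6, and Csrp2 and Pln in 5. At week 12 Acta2 was at 2596 CPM in cells with Mki67 against 3703 CPM in cells without it in magnesium, 1942 against 2441 CPM in CGRP, 3737 against 4254 CPM in zoledronate and 2583 against 2988 CPM in control. The log2 ratio of Acta2 lay between -0.51 (magnesium, week 12) and -0.10 (magnesium, week 4). Among cells without Mki67 at week 4, Acta2 was at 1745 CPM in CGRP against 3130.2 CPM in zoledronate.

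The genes most and least like the set over cells were found by rank. Each of 6585 other genes at 5 CPM or more in every library was correlated with the mean of the 10 members over thinned cells. Their median r was -0.00, and 43 of them (0.653%) reached 0.2. Dstn (destrin, which cuts actin filaments) was first with 0.59, before the cytoplasmic actins Actb (0.53) and Actg1 (0.45), with caldesmon (Cald1, 0.47) between them. Next came the small heat shock protein Hspb1 (0.43), the growth factor Tgfb3 (0.42), the light chains Myl6b (0.41) and Myl12a (0.40), the actin crosslinker filamin A (Flna, 0.39) and the LIM protein Csrp1 (0.38). At the other end were Fth1, the ferritin heavy chain (-0.39), Nqo1, a quinone reductase (-0.27), osteopontin (Spp1, -0.25) and the ribosomal protein genes Rplp0 (-0.24) and Rps2 (-0.22). Of the genes that define mature smooth muscle, Lmod1 had 0.33, Myh11 0.25 and Smtn 0.07, while Myocd (0.03), Synpo2 (0.02) and Des (0.01) were below the level needed to be ranked. The skeletal actin Acta1 had 0.26.

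Genes of the same pathways were listed beside the members, beginning with those of the light chain switch. Mylk, the kinase that phosphorylates the light chain, was, at week 12, at 121 CPM in magnesium, 64.5 CPM in CGRP, 6.14 CPM in zoledronate and 12.6 in control. At week 4 Mylk was at 6.07 CPM in magnesium, 3.27 CPM in CGRP, 8.71 CPM in zoledronate and 5.40 CPM in control. The libraries high in Mylk at week 12 were those high in Ppp1r14a. The other 5 counted genes of this list of 8 include the phosphatase subunit Ppp1r12a and the kinase Rock2. None of the 5 was past the fold of 1.5 in the 6 treatment comparisons or the 4 week comparisons. Over all genes 0.472 to 12.3% were past it in a direction there, so a count of 0 among 5 genes is no result about them. The r of Mylk with the mean of the members over thinned cells was 0.37 in magnesium and 0.21 in CGRP at week 12, and lay between 0.09 and 0.20 in the other 6 libraries.

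Of the 20 other smooth muscle filament and linker genes, 13 were counted. Myh11 was, at week 12, at 67.0 CPM in magnesium, 20.1 CPM in CGRP, 29.4 CPM in zoledronate and 32.0 CPM in control. Its week 4 levels were 17.7 CPM in magnesium, 8.11 CPM in CGRP, 25.5 CPM in zoledronate and 11.3 CPM in control. For magnesium over zoledronate at week 12, 2 of the 13 were higher, Myh11 (1.16) and Tagln2, and 0 lower (over all genes 7.58% were higher and 4.51% lower), and at week 4, 0 were past the fold. For CGRP over zoledronate at week 12, 2 were higher (Smtn and Tagln2) and 1 lower (Fhl1), where 5.6% of all genes were higher and 5.13% lower. At week 4 of that comparison 1 was higher (Tagln2) and 2 lower (Myh11, -1.54, and Nexn), where 4.46% of all genes were higher and 5.2% lower. For zoledronate over control at week 12, 0 were higher and 4 lower (Smtn, Actn1, Vcl and Tagln2), where 5.21% of all genes were higher and 12.3% lower, and at week 4, 1 was higher (Myh11, 1.11) and 0 lower (1.26% and 1.21% over all genes). For week 12 over week 4 in control, 4 were higher (Myh11, Actn1, Vcl and Fhl1) and 0 lower (8.06% and 4.4% over all genes). In magnesium 2 were higher and 0 lower (6.09% and 4.64%). In CGRP 1 was higher and 0 lower (6.75% and 7.46%), and in zoledronate 1 and 1 (3.31% and 5.61%).

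Of the 12 nonmuscle actomyosin genes, 11 were counted. For zoledronate over control at week 12, 2 were lower, the myosin heavy chain Myh10 and the light chain Myl12b, and 0 higher. Over all genes 12.3% were lower and 5.21% higher there. For CGRP over zoledronate at week 12, 1 was higher (Myh10) and 0 lower, where 5.6% of all genes were higher and 5.13% lower. In the other 4 treatment comparisons 0 were past the fold, where 0.472 to 7.58% of all genes were past it in a direction. For week 12 over week 4 in control, 1 was higher (Myl12b) and 0 lower (8.06% and 4.4% over all genes). In magnesium 0 were past the fold (6.09% and 4.64%). In CGRP 1 was higher (Myh9) and 0 lower (6.75% and 7.46%), and in zoledronate 0 were higher and 1 lower (Myh10; 3.31% and 5.61%).

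SRF, the transcription factor that reads CArG boxes, was at 27.7 to 42.2 CPM in the 8 libraries. The list of SRF cofactors and regulators held 11 symbols, of which Mkl1 and Mkl2 are older names of Mrtfa and Mrtfb. None of these names was listed in any library, so those cofactors could not be followed. Of the 11 symbols 5 were counted in each of the 6 treatment and 4 week comparisons. In all of these 1 was past the fold, Srf in control at week 12 over week 4 (0.59), where 8.06% of all genes were higher and 4.4% lower. Myocd, the cofactor specific to cardiac and smooth muscle, was, at week 12, at 6.77 CPM in magnesium, 3.02 CPM in CGRP, 0.872 CPM in zoledronate and 3.94 CPM in control, and at 0.874 to 1.14 CPM at week 4. Of the 17 symbols of TGF beta ligands, receptors and targets, in which Ccn2 and Ctgf name the same gene, 13 were counted. For zoledronate over control at week 12, 3 were higher (Ctgf, Tgfbi and Postn) and 2 lower (Tgfb3 and Smad7), where 5.21% of all genes were higher and 12.3% lower, and at week 4, 2 were higher (Tgfbi and Postn) and 0 lower (1.26% and 1.21% over all genes). For CGRP over zoledronate at week 12, 1 was higher (Tgfbi) and 4 lower (Tgfb1, Tgfb2, Tgfb3 and Ctgf), where 5.6% of all genes were higher and 5.13% lower. At week 4 of that comparison 0 were higher and 4 lower (Ctgf, Tgfbi, Fn1 and Postn), where 4.46% of all genes were higher and 5.2% lower. Ctgf, a matricellular target of TGF beta, was at 3457 CPM in CGRP against 6976 CPM in zoledronate at week 12 and at 3265 against 5042 CPM at week 4. For magnesium over zoledronate at week 12, 2 were higher (Smad7 and Tgfbi) and 2 lower (Tgfb2 and Ctgf), where 7.58% of all genes were higher and 4.51% lower, and at week 4, 0 were past the fold. For week 12 over week 4 in control, 6 were higher (Tgfb2, Tgfb3, Smad7, Ltbp1, Ltbp2 and Postn) and 0 lower (8.06% and 4.4% over all genes). In magnesium 4 were higher and 2 lower (6.09% and 4.64%). In CGRP 4 were higher and 0 lower (6.75% and 7.46%), and in zoledronate 2 and 0 (3.31% and 5.61%). Tgfbi, another target of TGF beta, was, at week 12, at 65.2 CPM in magnesium, 82.0 CPM in CGRP, 9.01 CPM in zoledronate and 5.02 in control.

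Further lists held muscle genes. Of 15 striated muscle genes 2 were counted in 9 of the 10 comparisons, Acta1 and the muscle cytochrome oxidase subunit Cox6a2. For zoledronate over control at week 12 Tnnc1 was counted too, and was lower (3.36 against 7.86 CPM). There Acta1 was also lower (108 against 175 CPM) and Cox6a2 higher (264 against 60.0 CPM), where 12.3% of all genes were lower and 5.21% higher. At week 4 Acta1 was higher in zoledronate than in control (60.6 against 31.6 CPM), where 1.26% of all genes were higher. Acta1 was higher at week 12 than at week 4 in all treatments, with log2 ratios of 2.17 in magnesium, 1.38 in CGRP, 0.82 in zoledronate and 2.44 in control. Cox6a2 had ratios of -0.67 in magnesium, 1.11 in CGRP, 1.18 in zoledronate and -0.98 in control. Over all genes 3.31 to 8.06% were higher and 4.4 to 7.46% lower in these week comparisons. Beside zoledronate at week 4, Acta1 was lower past the fold in CGRP (29.5 CPM) and magnesium (31.9 CPM), where 5.2% and 0.472% of all genes were lower. Cox6a2 was lower past the fold in CGRP at week 12 (background 5.13%) and week 4 (background 5.2%), and in magnesium at week 12 (background 4.51%). Of 6 genes of sarcoplasmic reticulum calcium handling 3 were counted, and Casq2, a calcium store protein of muscle, was, at week 12, at 22.5 CPM in magnesium, 9.32 CPM in CGRP, 75.6 CPM in zoledronate and 16.1 in control. At week 4 Casq2 was at 25.3 CPM in magnesium, 10.5 CPM in CGRP, 38.5 CPM in zoledronate and 19.1 CPM in control. Atp2a2, the calcium pump that Pln holds back, was at 124 to 179 CPM in all libraries and past the fold in none of the comparisons. The remaining counted gene, Itpr1, was lower for CGRP over zoledronate at week 4 (37.3 against 73.6 CPM). It was also lower for magnesium over zoledronate at week 12 (46.4 against 72.6 CPM) and for week 12 over week 4 in magnesium (46.4 against 72.3 CPM). Over all genes 5.2%, 4.51% and 4.64% were lower in these comparisons.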

How the data were processed

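Callus cells of 8 groups, 1 library each, were measured. The deposited tables, 1 for each library, give counts: whole numbers of UMIs for genes (rows) and cell barcodes (columns). The tool STAR and the build Rnor_6.0 stand in the list of the submitters' processing notes. The aligner's version, the annotation, the cell calling, the filters and the counting of reads that fit several genes were not given in the sources used here. No mitochondrial gene is listed in the deposited counts, so damaged cells could not be judged that way. Doublets were not called and were treated as present.

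UMIs were summed over all barcodes of a library and scaled to 1000000 (CPM). Depth was 141264724 to 160177900 UMIs per library. Log2 ratios used CPM plus 1, and genes with a mean of at least 5 CPM, listed in both libraries, were counted at a fold of 1.5. Correlations used barcodes with at least 5000 UMIs scaled to 10000. Thinning drew 5000 UMIs per barcode without replacement. Poisson and Clopper-Pearson 95% intervals cover counting error only. The scripts were tested on simulated data.

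The 10 members are all named. Other genes are named by the rank of their correlation with the members' mean (first 10 and last 5), or as genes of fixed lists past the fold. Genes of smooth muscle, Mki67 and those with levels set beside a member are named in addition. The members, lists and alternatives were chosen with earlier results of these data known, and the relaxed CArG search after the strict one. Alternatives were TMM factors (edgeR 4.0.16) and size factors (DESeq2 1.42.0), used for scaling only, a pseudocount of 0.1 CPM, no filter on low levels, other sets of barcodes, equal weight per barcode, a fold of 2, Spearman's rho and pooled libraries. Python 3.11.15, numpy 2.4.6, scipy 1.17.1, pandas 2.3.3 and R 4.3.3 were used. Sequences are RefSeq's, build GRCr8; counts are on another build, so no coordinates are given.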

Additional observations from a re-analysis of the deposited data

Results flagged for a closer look

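Members that were past a fold of 1.5 on opposite sides of the same contrast in different groups are listed here, and members that passed it on 1 side only are left out. With 1 library per group none of these differences was tested. Ppp1r14a had a log2 ratio for CGRP over zoledronate of 0.96 at week 12 and -1.39 at week 4. Csrp2 had a log2 ratio for week 12 over week 4 of 0.84 in CGRP and -0.76 in control. Pln had a log2 ratio for week 12 over week 4 of -2.76 in magnesium (-3.85 with 0.1 CPM added in place of 1, from 93 UMIs at week 12), 1.20 in CGRP, -0.93 in zoledronate and -1.53 in control.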

How the results depend on the processing

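Of the 800 log2 ratios recomputed under the alternatives, 0 that were past the fold changed sign and 794 kept the sign of the reported value, and all 270 pair correlations kept theirs, moving by at most 0.171. Of 186 counts of members or pairs, 176 stayed within 1.5 times the reported count. Part of this agreement was fixed in advance. Dropping the filter on low levels left every ratio and member count as reported, since all 10 members passed it in each comparison. A pseudocount of 0.1 CPM can change the size of a ratio but not its sign. A fold of 2 in place of 1.5 left the following counts, with the share of all genes past that fold in brackets. For zoledronate over control at week 4, 1 member was higher (0.222%). For CGRP over zoledronate, 3 were lower at week 4 (1.59%), and 0 higher (2.35%) and 1 lower (1.7%) at week 12. For magnesium over zoledronate at week 12, 1 was higher (3.47%). For week 12 over week 4, 1 was higher (2.66%) and 1 lower (1.85%) in control, and 0 were lower (2.29%) in zoledronate. Without barcodes that held Mki67 or Top2a, 1 member in place of 0 was lower for zoledronate over control at week 4, and with equal weight per barcode 1 in place of 2 was lower for week 12 over week 4 in magnesium. The cause of these moves was not tested, beyond the stricter fold itself. The pseudocount of 0.1 CPM took the Pln ratio for magnesium over zoledronate at week 12 to -4.11, and that for week 12 over week 4 in magnesium to -3.85. Pairs with a median of at least 0.2 numbered 24, and 19 after thinning. No paired analysis was possible because each group is 1 library and the labels give no replicate numbers. Counts were few for Pln in magnesium at week 12, with 93 UMIs in the library with the most UMIs (160177900). They were also few for Des and Csf1r in all libraries, and for Ptprc in the 2 libraries that list it.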
